A study of Mus musculus with 137 samples.

Results

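The genes described here are 10 genes listed as Paneth cell products: Lyz1, Mmp7, Ang4, Itln1, Defa5, Defa17, Defa22, Defa24, Nupr1 and Pnliprp2. They were selected by gene symbol, and where a gene had more than 1 probe the probe with the highest total count was used. The count table held 30146 probes for 21450 genes, and 9 of the 10 genes had a probe in it. Defa17 was not analysed here. For Nupr1 and Pnliprp2 the main fit, which did not pair the libraries of a mouse, went against that name. It called neither higher in crypts than in villi at any dose on either day. With the libraries of a mouse paired, Pnliprp2 was called higher in crypts at 3 exposed combinations of dose and day and Nupr1 at 1. Both were then called lower in crypts at 0.1 ppm on day 91. Within the libraries of higher pancreatic acinar content their crypt levels correlated with the sum of acinar markers at r = 0.766 and 0.949. All 9 measured genes were among the 26365 probes, for 19020 genes, that passed the filter on low counts.

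Paneth cells sit at the base of the small intestinal crypts, between the stem cells, and release granules filled with antimicrobial proteins into the crypt lumen. Lyz1 encodes the lysozyme of these granules, which cleaves bacterial cell walls, and Ang4 encodes a ribonuclease of the angiogenin family with antimicrobial activity. The Defa genes encode alpha-defensins, small peptides that are made as inactive precursors, and Mmp7 encodes matrilysin, the protease that cuts these precursors into active peptides in the mouse. Itln1 encodes intelectin, a lectin that binds microbial sugars. Nupr1 encodes a small stress-induced nuclear protein and Pnliprp2 a lipase related to pancreatic lipase, and both are also transcribed in the acinar cells of the pancreas.

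The transcripts were measured by TempO-Seq, an assay that joins pairs of short probes once they have bound neighbouring stretches of a transcript and then counts the joined products by sequencing. The tissue was fixed duodenum from wildtype female B6C3F1 mice that drank water with 0, 0.1, 1.4, 5, 20, 60 or 180 ppm hexavalent chromium, Cr(VI), given as sodium dichromate dihydrate, and that were examined on day 8 or day 91, after 7 or 90 days of exposure. The ages of the mice were not given in the sources used here. For each mouse, crypts were scraped from a section whose villi had been cut away and villi from a neighbouring section whose crypts had been cut away. This gave 71 crypt and 66 villus libraries from 71 mice, in 28 groups of 5, except that the crypt group at 0.1 ppm on day 8 held 6 and the villus groups at 5, 20 and 180 ppm on day 8 and at 0 ppm on day 91 held 4. Library totals ran from 1463938 to 7199801 counts with a median of 3592983. Levels are given as CPM, counts scaled to a common library size, and differences as log2 fold changes with their SE. A difference was called where its adjusted p was under 0.1 in edgeR's quasi-likelihood test over all probes. Counts at an unadjusted p under 0.05 have no share of all probes beside them. They therefore cannot show an excess over other probes.

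Because a library holds every cell of the scraped compartment, fewer Paneth cells and less RNA in each Paneth cell could not be told apart in any of the values that follow. The compartments were checked with 12 markers of crypt epithelium outside Paneth cells, such as Lgr5 and Mki67, and 12 markers of villus enterocytes, such as Apoa1 and Sis. In untreated mice on day 91, 8 of the 12 crypt markers were called higher in crypts (6.93% of all probes) and 7 of the 12 villus markers were called lower there. In a fit without the 2 libraries named below, 3.46% of all probes were called lower in that comparison. On day 8 the counts were 0 and 2 in edgeR (0.0303% and 0.121% of all probes), and 7 and 6 at an unadjusted p under 0.05. A pair of untreated day 8 libraries went against their labels. The library labelled crypt of mouse 49 had a summed crypt marker level of 506 CPM, below the 1240 CPM of the library labelled villus of mouse 48. Lyz1 was likewise crossed, since it stood at 335 CPM in the former and 2430 CPM in the latter. Without these 2 libraries, 5 of the 12 crypt markers were called higher (2.91% of all probes) and 8 of the 12 villus markers lower (1.73%) in untreated day 8 crypts. The 2 libraries were picked by such levels. Leaving them out therefore widens the untreated day 8 difference between compartments by itself, and the added calls are no separate support for it. The day 8 calls on the 9 genes are given with and without them.

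Lyz1, Mmp7, Ang4, Defa22 and Defa24 were higher in crypts than in villi at each of the 6 exposed doses on both days, by log2 2.05 to 5.17. In the crypts themselves, the main edgeR fit called none of the 9 genes higher or lower at any dose of Cr(VI) on either day. Fits of each compartment and day on their own called 9 day 91 crypt tests lower. In the villi, Defa24, Mmp7 and Ang4 were called lower at some doses on day 8, and 6 of those 7 calls were lost without the 2 libraries above. On day 91, Mmp7 was the 1 gene of the 9 called in the villi, and it was lower at 20, 60 and 180 ppm.

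The stretches just before the start of 4 of the genes are shown because these genes moved together across libraries (described further on), and because Wnt signalling, which shapes Paneth cells, acts through TCF factors that bind motifs of the kind CTTTGA or CTTTGT. The sequences are RefSeq's for GRCm38.p6, each 250 bases that end at the base before the annotated start, written 5′ to 3′ on the strand of the gene. Capitals mark a match to either motif on either strand (TCAAAG and ACAAAG are the motifs on the opposite strand).
Lyz1, chr10:117292869-117293118, minus strand: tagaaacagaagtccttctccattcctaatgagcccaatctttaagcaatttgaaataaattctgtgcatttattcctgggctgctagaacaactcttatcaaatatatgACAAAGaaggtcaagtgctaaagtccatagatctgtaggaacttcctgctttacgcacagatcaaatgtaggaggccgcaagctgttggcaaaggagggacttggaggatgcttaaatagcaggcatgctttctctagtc
Mmp7, chr9:7691840-7692089, plus strand: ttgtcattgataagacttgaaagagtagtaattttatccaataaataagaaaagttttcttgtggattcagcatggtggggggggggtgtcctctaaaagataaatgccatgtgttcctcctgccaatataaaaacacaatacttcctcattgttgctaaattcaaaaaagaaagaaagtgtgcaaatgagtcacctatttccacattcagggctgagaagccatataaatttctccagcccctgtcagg
Ang4, chr14:51773591-51773840, minus strand: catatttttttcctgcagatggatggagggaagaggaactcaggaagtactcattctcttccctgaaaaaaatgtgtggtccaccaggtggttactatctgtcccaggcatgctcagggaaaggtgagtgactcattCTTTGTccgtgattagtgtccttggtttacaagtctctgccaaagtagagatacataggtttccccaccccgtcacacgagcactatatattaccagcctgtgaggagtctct
Defa22, chr8:21162027-21162276, plus strand: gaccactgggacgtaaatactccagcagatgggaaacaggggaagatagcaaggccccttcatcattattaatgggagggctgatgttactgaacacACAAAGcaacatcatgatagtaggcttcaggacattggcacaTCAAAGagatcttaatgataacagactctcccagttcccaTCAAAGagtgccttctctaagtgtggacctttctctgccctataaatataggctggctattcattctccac
The Defa22 stretch held 3 matches, starting 153, 111 and 71 bases before the start, the Lyz1 stretch 1 (140 bases) and the Ang4 stretch 1 (113 bases), and the Mmp7 stretch held none. Of 32851 such stretches in the table, 27.6% held at least 1 match and 5.15% at least 2. Pnliprp2 also had 1 match (167 bases before the start), whereas Itln1 and Nupr1 had 0, and Defa5, Defa17 and Defa24 had no entry in the table. A match describes letters only and says nothing of binding.

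In untreated mice on day 91, which shows where the transcripts lay without exposure, 6 of the 9 genes were called higher in crypts than in villi, against 6.93% of all probes called higher. Lyz1 measured 1098, 1729, 1875, 3425 and 3692 CPM in the 5 crypt libraries and 134.5, 249, 291 and 638 CPM in the 4 villus libraries. The groups did not overlap, and the difference was log2 2.85 ± 0.59 (SE), with an adjusted p of 0.000436 in edgeR. Defa22 measured 3107 to 8225 CPM in crypts against 226 to 1234 CPM in villi (log2 3.04 ± 0.66, adjusted p = 0.00099 in edgeR), and Defa24 measured 3335 to 7847 CPM against 258 to 1192 CPM (log2 2.89 ± 0.59, adjusted p = 0.00042). Ang4 measured 57.1, 58.0, 63.4, 103 and 144 CPM in crypts and 0, 5.80, 16.0 and 16.4 CPM in villi, a difference of log2 3.15 ± 0.78 (adjusted p = 0.00471 in edgeR). In these 4 genes all crypt libraries lay above all villus libraries, as in 4.97% of all probes.

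The processing protease overlapped between the compartments. Mmp7 measured 198, 315, 377, 415 and 526 CPM in the untreated day 91 crypts and 27.2, 30.9, 116 and 204 CPM in the villi, so the highest villus library stood just above the lowest crypt library. Its difference passed the test (log2 1.955 ± 0.61, adjusted p = 0.035 in edgeR). Defa5, a low-count alpha-defensin, measured 6.22, 10.8, 13.9, 18.3 and 47.3 CPM in crypts and 0, 0, 0 and 7.91 CPM in villi (log2 3.34 ± 1.22, adjusted p = 0.0828 in edgeR). Nupr1 and Pnliprp2 differed by log2 -0.00 and 1.54 (adjusted p = 1 and 0.438 in edgeR), and Itln1 was at 0 in all 4 villus libraries.

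**Figure D1:**
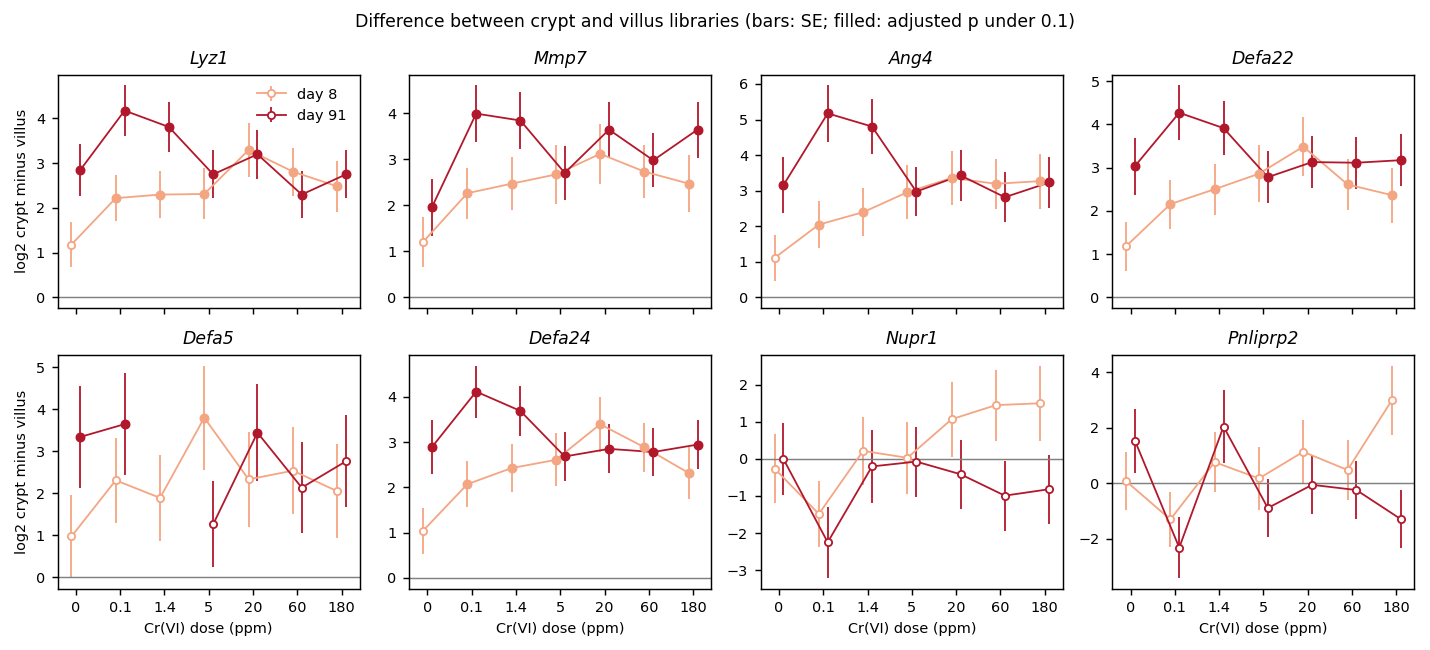
Crypt minus villus difference (log2 fold change, y axis, bars SE) of 8 of the 9 genes over dose of Cr(VI) (x axis, ppm) on day 8 (light) and day 91 (dark), with filled points for an adjusted p under 0.1 and no point where all villus libraries were at 0. Lyz1, Mmp7, Ang4, Defa22 and Defa24 have filled points at every exposed dose, while their untreated day 8 values lie open between 1.04 and 1.20.

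On day 8, the same comparison in untreated mice called 0 of the 9 genes, against 0.0303% of all probes called higher and 0.121% called lower. At an unadjusted p under 0.05 edgeR counted 5 higher and 0 lower, and DESeq2 called 0. Lyz1 measured 335, 1453, 2255, 3625 and 4389 CPM in crypts and 342, 660, 760, 1122 and 2430 CPM in villi, and the lowest crypt library (mouse 49) and the highest villus library (mouse 48) produced the overlap. The differences were log2 1.18 ± 0.51 for Lyz1, 1.20 ± 0.55 for Mmp7, 1.11 ± 0.64 for Ang4, 1.18 ± 0.57 for Defa22 and 1.04 ± 0.51 for Defa24. Without the 2 libraries, 4 genes were called against 2.91% of probes: Lyz1 at log2 2.03 (adjusted p = 0.0204), Mmp7 at 2.05 (0.0371), Defa22 at 2.16 (0.0317) and Defa24 at 1.996 (0.0243). Ang4 then stood at log2 1.68 (adjusted p = 0.1996). Because the 2 libraries were picked by their crypt marker and Lyz1 levels, leaving them out raises these differences by itself. When all libraries were kept and the mouse was entered as a block, the same 4 genes were called against 1.51% of probes, at log2 0.95 to 1.15, and with the block and without mice 48 and 49 Ang4 joined them (log2 1.42, adjusted p = 0.0378, against 2.11% of probes).

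In exposed mice, 31 of 54 gene-by-dose tests were called higher in crypts on day 8, against 4.02% of all probe tests, and 33 of 54 on day 91, against 4.17%. All crypt libraries lay above all villus libraries in 29 of the 54 tests on day 8, against 3.67% of all probe tests, and in 34 of the 54 on day 91, against 5.98%. Lyz1 differed by log2 2.22 (0.1 ppm) to 3.30 (20 ppm) on day 8 and by 2.30 (60 ppm) to 4.18 (0.1 ppm) on day 91. Ang4 had its greatest difference at 0.1 ppm on day 91, log2 5.17. At 180 ppm on day 91 the differences were log2 2.75 for Lyz1, 3.64 for Mmp7, 3.23 for Ang4, 3.17 for Defa22 and 2.95 for Defa24. Defa5 was called at 5 ppm on day 8 and at 0.1, 1.4 and 20 ppm on day 91, whereas Itln1, Nupr1 and Pnliprp2 were called at none of the 12 exposed combinations of dose and day. With the mouse as a block, Pnliprp2 was called higher in crypts on day 8 at 20 ppm (log2 1.52) and 180 ppm (2.74). It was also called higher at 1.4 ppm on day 91 (2.58), and Nupr1 at 60 ppm on day 8 (1.86). At 0.1 ppm on day 91 Nupr1 (log2 -1.71) and Pnliprp2 (-1.65) were called lower in crypts. At the doses of these calls, 3.32% to 6.5% of probes were called higher, and 3.42% lower at 0.1 ppm.

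**Figure D2:**
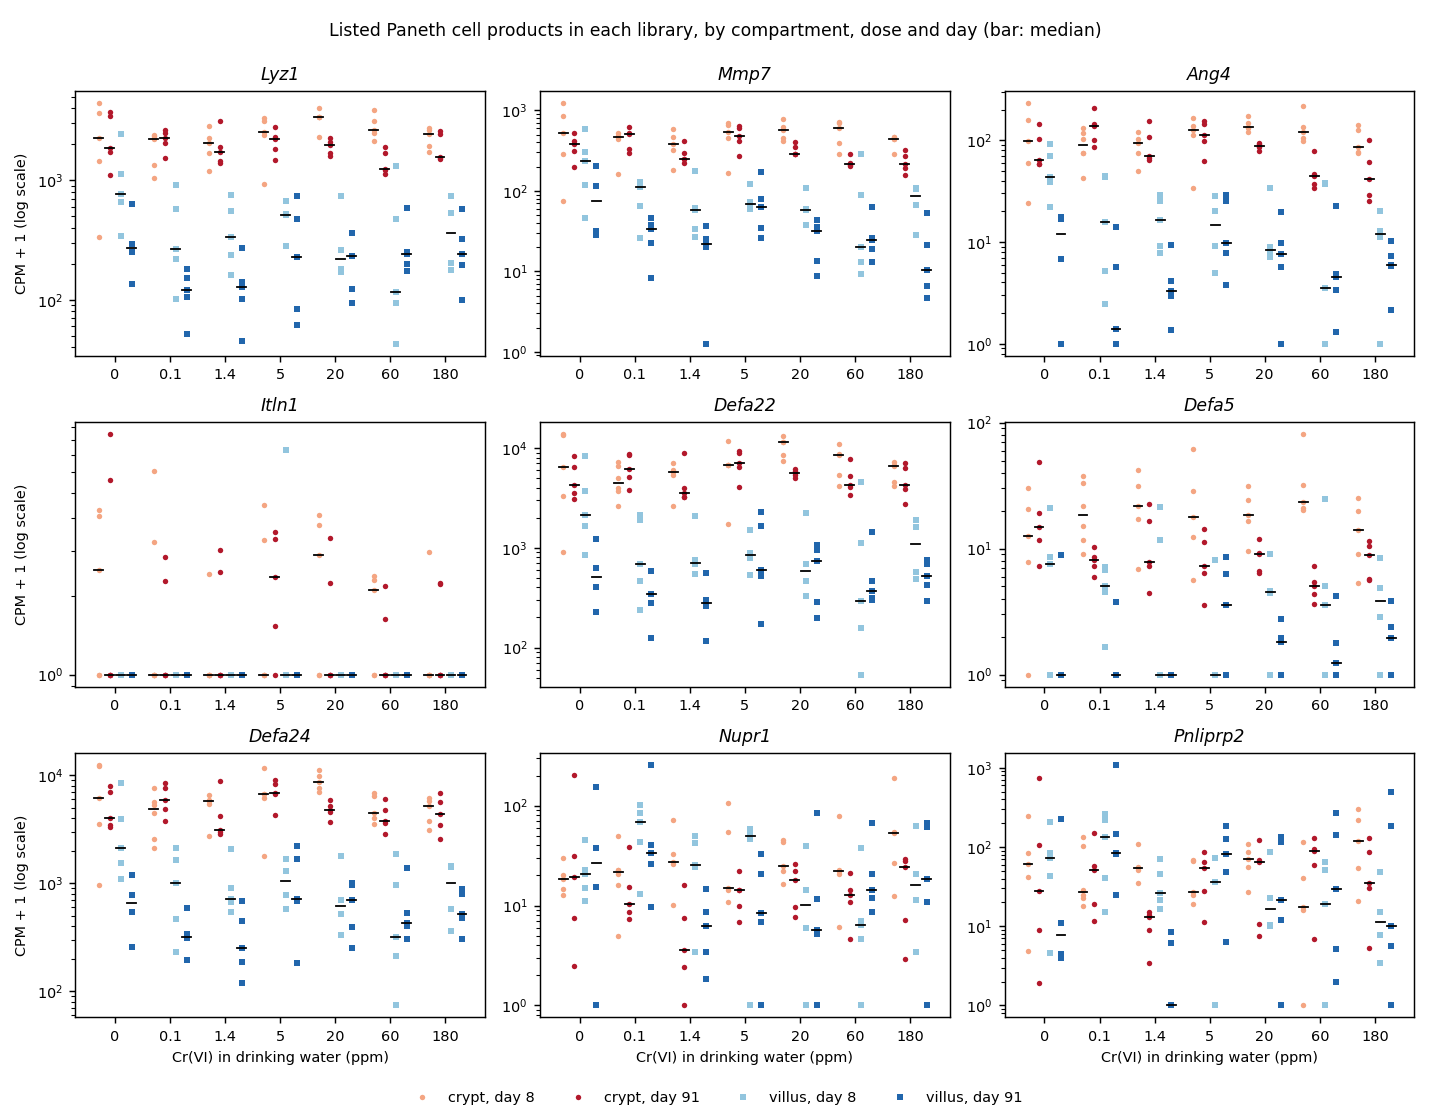
Level of each of the 9 genes in every library (CPM + 1, y axis, log scale) by dose of Cr(VI) (x axis, ppm), with circles for crypt and squares for villus libraries, light for day 8 and dark for day 91, and a short bar at each group median. Crypt points of Lyz1, Defa22 and Defa24 lay above the villus points at most doses, and the median of Mmp7 in day 91 villi is 73.2 CPM at 0 ppm and 9.33 CPM at 180 ppm.

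In the crypts, the exposed groups asked whether Cr(VI) changed these transcripts in the compartment where Paneth cells reside. Of 54 gene-by-dose tests on each day, the main edgeR fit called 0 higher and 0 lower. Over all probes and doses, 0.149% were called higher and 0.617% lower on day 8, and 1.53% and 0.623% on day 91. At an unadjusted p under 0.05, 0 tests passed on day 8, and on day 91 0 passed as higher and 5 as lower, while DESeq2 called 0 on day 8 and 2 lower on day 91. Of all probes it tested on day 91, DESeq2 called 0.00334% (5 ppm) to 15.2% (60 ppm) lower. The median Lyz1 level of the 7 crypt dose groups lay between 2048 and 3391 CPM on day 8 and between 1229 and 2263 CPM on day 91, with the highest median at 20 ppm on day 8 and at 0.1 ppm on day 91. At 180 ppm on day 8 Lyz1 differed from untreated crypts by log2 -0.07 (95% interval -1.05 to 0.90), Mmp7 by -0.49 (-1.55 to 0.57) and Ang4 by -0.19 (-1.42 to 1.05). These intervals hold changes in both directions. Without the crypt library of mouse 49 and the villus library of mouse 48 the 3 values were log2 -0.31 (adjusted p = 1 in edgeR), -0.73 (0.708) and -0.41 (1), and 0 of the 9 genes was called.

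At 60 and 180 ppm on day 91 the crypt values of most of these genes lay below the untreated ones without passing the test. Mmp7 differed by log2 -0.70 at 60 ppm and -0.66 at 180 ppm, Ang4 by -0.86 and -0.75, and Lyz1 by -0.72 and -0.29. Defa22 and Defa24 stood at log2 -0.08 and -0.16 at 180 ppm. Defa5 did not overlap between untreated crypts (6.22 to 47.3 CPM) and crypts at 60 ppm (2.63 to 6.21 CPM), with a difference of log2 -2.21 ± 1.02 (adjusted p = 0.205 in edgeR). When each compartment and day was fitted on its own, 9 day 91 crypt tests were called lower: Defa5 at 20, 60 and 180 ppm, Mmp7 and Ang4 at 60 and 180 ppm, and Lyz1 and Nupr1 at 60 ppm. In those separate fits 12.8% of all probes were called lower at 60 ppm and 8.79% at 180 ppm, and 3.31% at 20 ppm.

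**Figure D3:**
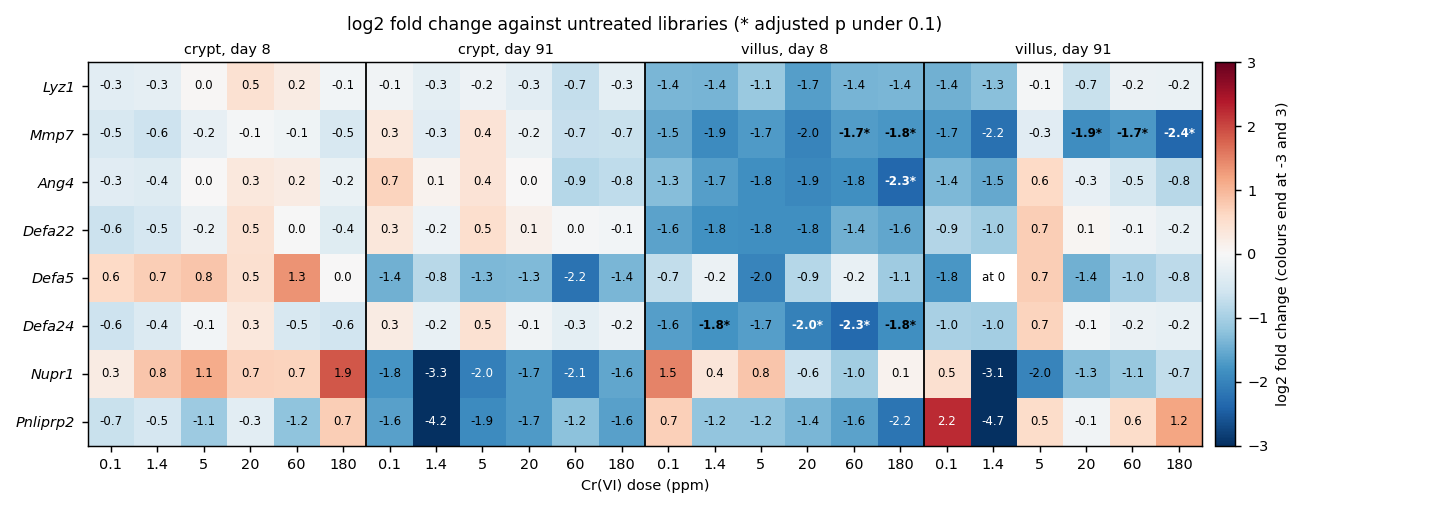
Heat map of the log2 fold change against untreated libraries of 8 of the 9 genes (one line each) at the 6 doses of Cr(VI) in ppm (columns) in crypts and villi on days 8 and 91, with the value in each cell, an asterisk for an adjusted p under 0.1, and at 0 written where a group had no counts. No crypt cell has an asterisk, Defa24 and Mmp7 carry 6 of the 7 in day 8 villi, and Mmp7 carries the 3 in day 91 villi.

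In the villi on day 8, 7 of 54 tests were called lower, against 1.44% of all probe tests, and 0 were called higher, against 0.849%. At an unadjusted p under 0.05 the counts were 29 lower and 1 higher, and DESeq2 called 16 lower and 0 higher. Of all probes it tested, DESeq2 called 0.0563% (0.1 ppm) to 7.88% (180 ppm) lower here. Defa24 measured 1084, 1532, 2108, 3904 and 8456 CPM in untreated villi and 364, 583, 1412 and 1453 CPM at 180 ppm, a difference of log2 -1.84 ± 0.56 (adjusted p = 0.0484 in edgeR). It was also called at 1.4 ppm (log2 -1.80), 20 ppm (-2.03) and 60 ppm (-2.32). Mmp7 measured 45.1, 118, 237, 304 and 583 CPM in untreated villi and 27.4, 66.5, 104 and 108 CPM at 180 ppm (log2 -1.76 ± 0.61, adjusted p = 0.0968 in edgeR), and was also called at 60 ppm (log2 -1.67). Ang4 measured 21.3, 38.2, 42.7, 68.4 and 91.7 CPM in untreated villi and 0, 10.2, 11.9 and 19.0 CPM at 180 ppm. Its groups did not overlap (log2 -2.35 ± 0.75, adjusted p = 0.0636 in edgeR). Lyz1 and Defa22, which were not called, stood at log2 -1.38 (adjusted p = 0.158) and -1.55 (0.157).

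The highest untreated villus value of Defa24, Mmp7 and Ang4 was that of mouse 48, the library with a crypt marker sum of 1240 CPM. Leaving out the villus library of mouse 48 alone gave 1 call, and leaving out that of mouse 47 gave 2 and of mouse 526 or 528 (180 ppm) gave 4. Fitting each compartment and day on its own gave 1. Without the libraries of mice 48 (villus) and 49 (crypt), 1 of the 7 calls remained, Defa24 at 60 ppm (log2 -1.66, adjusted p = 0.045). At 180 ppm the values were then log2 -1.18 for Defa24 (adjusted p = 0.187), -1.21 for Mmp7 (0.204) and -2.05 for Ang4 (0.111). Across all 7 doses, a test for trend over dose rank called 4 genes lower, against 9.74% of all probes: Ang4 at log2 -0.30 per dose step (adjusted p = 0.0259), Defa24 at -0.25 (0.0118), Mmp7 at -0.20 (0.0804) and Pnliprp2 at -0.41 (0.0831). It called 0 genes higher, against 5.78% of probes. Without the 2 libraries Ang4 (log2 -0.27, adjusted p = 0.0503), Defa24 (-0.18, 0.0706) and Pnliprp2 (-0.41, 0.0886) stayed called and Mmp7 did not (-0.14, 0.263). In crypts the same test called 0 genes on either day, against 3.26% of probes higher and 5.41% lower on day 8 and 9.22% and 4.53% on day 91. There 0 genes passed on day 8 and 1, Ang4, on day 91 at an unadjusted p under 0.05, and DESeq2 called 0 and 2. In the day 91 crypts the DESeq2 trend called 11.8% of probes higher and 16.1% lower.

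In the villi on day 91, Mmp7 supplied all 3 of the tests called lower, of 54, against 2.54% of all probe tests, and 0 were called higher, against 6.85%. At an unadjusted p under 0.05 edgeR counted 10 lower and 0 higher, and DESeq2 called 8 lower and 0 higher. Of all probes it tested, DESeq2 called 1.13% (1.4 ppm) to 12.5% (60 ppm) lower here. Mmp7 measured 7.65, 12.4, 31.1, 34.95 and 42.2 CPM at 20 ppm, 12.2, 18.04, 23.7, 25.2 and 62.6 CPM at 60 ppm, and 3.63, 5.64, 9.33, 20.4 and 52.1 CPM at 180 ppm. Of the 4 untreated libraries (27.2, 30.9, 116 and 204 CPM), the lower pair lay within these ranges and the upper pair above them. The differences were log2 -1.87 (adjusted p = 0.026) at 20 ppm, -1.72 (0.044) at 60 ppm and -2.35 ± 0.60 (0.00389) at 180 ppm. The median of all probes shifted by log2 0.35, 0.24 and 0.12 at these doses, and relative to that shift Mmp7 stood at -2.47 at 180 ppm. The call at 180 ppm was kept with each of the 9 libraries of the comparison left out in turn, at log2 -1.62 (without untreated mouse 7) to -3.25 (without mouse 484).

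Lower doses and the other granule genes did not pass the test in these villi. Mmp7 stood at log2 -1.72 at 0.1 ppm (adjusted p = 0.225), -2.23 at 1.4 ppm (0.112) and -0.35 at 5 ppm (0.771), so its values did not fall in step with dose, although the trend over all 7 doses was called (log2 -0.24 per step, adjusted p = 0.0166, against 8.08% of probes called lower and 22.3% called higher). At 180 ppm Lyz1, Defa22 and Defa24 stood at log2 -0.20, -0.22 and -0.22 (adjusted p = 0.923, 0.925 and 0.904), with 95% intervals of -1.23 to 0.84, -1.37 to 0.94 and -1.26 to 0.83. Ang4 stood at log2 -0.83 (adjusted p = 0.541). Mmp7 per 100 CPM of Lyz1, a ratio chosen after the values were seen and therefore not tested, was 10.6 to 46.4 in the untreated day 91 villi, 7.12 to 12.6 at 60 ppm and 2.89 to 9.02 at 180 ppm, so that the untreated and 180 ppm libraries did not overlap. At 20 ppm, where Mmp7 was also called lower, most libraries had a ratio within the untreated range. In the day 91 crypts it was 12.1 to 20.1 untreated and 10.3 to 13.6 at 180 ppm, and in the day 8 villi 13.2 to 31.1 and 13.7 to 37.4.

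Cell type markers moved in the same villi. Of 10 listed goblet cell markers 8 had a probe, since Tff3 and Agr2 were not analysed here. The summed level of the 8 was 4449 to 5040 CPM in untreated day 91 villi and 5347 to 10351 CPM at 180 ppm, and 2 of the 8 were called higher (9.53% of all probes) and 0 lower. The crypt marker sum was 143 to 787 CPM and 262 to 548 CPM in these groups. Of the 12 villus markers, 5 were called lower at 180 ppm in the villi on each day, and 8 (day 8) and 5 (day 91) were called lower in the crypts, where the villus marker sum on day 8 was 28111 to 75037 CPM untreated (the highest in mouse 49, and 43443 CPM without it) and 9124 to 18435 CPM at 180 ppm. The shares of all probes called lower at 180 ppm with all libraries are given with the alpha-defensins and the wider Paneth cell list below. Without the 2 libraries the day 8 counts were 5 in villi (3.14% of all probes) and 6 in crypts (1.37%). The part of these shifts in the Mmp7 and Defa24 values was not tested.

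Whether the 180 ppm effect differed between compartments or days was tested directly, and edgeR called 0 of the 9 genes in each of the 4 tests. Between compartments 0.00379% of probes were called higher and 0.0114% lower on day 8, and 0.235% and 0.0114% on day 91. Ang4 on day 8 had a villus effect minus crypt effect of log2 -2.16 (95% interval -4.04 to -0.27, adjusted p = 0.336) and Mmp7 on day 91 of -1.69 (-3.26 to -0.12, adjusted p = 0.39), each the 1 gene with an unadjusted p under 0.05 in its test, and DESeq2 called 0. Without the crypt library of mouse 49 and the villus library of mouse 48 the Ang4 value was log2 -1.64 (adjusted p = 0.556). For Lyz1 the difference was log2 -1.30 (-2.74 to 0.14, and log2 -0.51 without these libraries) on day 8 and 0.10 (-1.33 to 1.53) on day 91. With the mouse as a block, 5 genes were called on day 8, against 0.296% of probes lower, namely Lyz1 (log2 -1.64), Ang4 (-2.83), Defa22 (-1.48), Defa24 (-1.52) and Pnliprp2 (-2.76), and Mmp7 was called on day 91 (log2 -1.59, adjusted p = 0.0589, against 0.0569%). With the block and without mice 48 and 49, the day 8 calls were Ang4 (log2 -2.30, adjusted p = 0.0294) and Pnliprp2 (-2.90, adjusted p = 3.622e-05), against 0.209% of probes, while Lyz1 (-0.90, 0.815), Defa22 (-0.67, 1) and Defa24 (-0.67, 1) were not called, and Mmp7 stayed called on day 91 (log2 -1.59, adjusted p = 0.0029, against 0.0834%). The acinar marker sum moved with the Pnliprp2 value on day 8. At 180 ppm it was lower in the villus than in the crypt library of each of the 4 mice with both, from 34418 to 13572, 55993 to 10864, 3586 to 973 and 15549 to 116 CPM, while in the 5 untreated mice it was higher in villi in 3 and lower in 2. Its part in the Pnliprp2 result was not tested. Between days 0.0834% of probes were called higher and 0.0114% lower in crypts, and 2.47% and 0.493% in villi. At an unadjusted p under 0.05 those tests counted 1 gene lower in crypts and 2 higher in villi, and DESeq2 called 0.

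The remaining genes were scarce or varied widely between libraries. Itln1 had 321 counts in all, spread over 31 of 71 crypt libraries and 1 of 66 villus libraries, so its differences rest on few counts. Defa5 was counted in 70 of 71 crypt and 34 of 66 villus libraries. Nupr1 ranged from 1.48 to 200 CPM and Pnliprp2 from 0.927 to 736 CPM within the 5 untreated day 91 crypt libraries, a wider spread than that of Lyz1. Neither was called at any single dose in either compartment. At 180 ppm on day 8 in crypts Nupr1 stood at log2 1.86 (adjusted p = 0.308 in edgeR), and at 60 ppm on day 91 at -2.12 (0.198).

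Pancreatic acinar transcripts were present in many libraries. The summed level of 19 acinar markers, such as Cpa1 and Pnlip, fell into separate clusters, 13.1 to 372 CPM in 14 crypt libraries and 2112 to 176731 CPM in the other 57, and 10.4 to 336 CPM in 16 villus libraries and 815 to 219069 CPM in the other 50. Within the higher cluster, Pnliprp2 correlated with this sum over libraries at Pearson's r = 0.949 and Spearman's rho = 0.956 in crypts (n = 57) and 0.917 and 0.908 in villi (n = 50), and Nupr1 at 0.766 and 0.726 in crypts and 0.759 and 0.782 in villi. The permutation p of each was 1e-05, the smallest that 100000 resamples can give (adjusted p = 5.333e-05 over 48 relations). Without the 2 libraries farthest from the median, r was 0.935, 0.898, 0.696 and 0.717 in that order of pairs. Within days 8 and 91 r was 0.954 and 0.950 (Pnliprp2 in crypts), 0.881 and 0.939 (Pnliprp2 in villi), 0.792 and 0.818 (Nupr1 in crypts) and 0.765 and 0.775 (Nupr1 in villi). In the lower cluster Pnliprp2 had r = 0.387 in crypts (n = 14, permutation p = 0.166) and 0.053 in villi. Of the 19 acinar markers, edgeR called 0 between compartments in untreated mice and 0 at 60 or 180 ppm in either compartment, and 0 passed at an unadjusted p under 0.05.

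**Figure D4:**
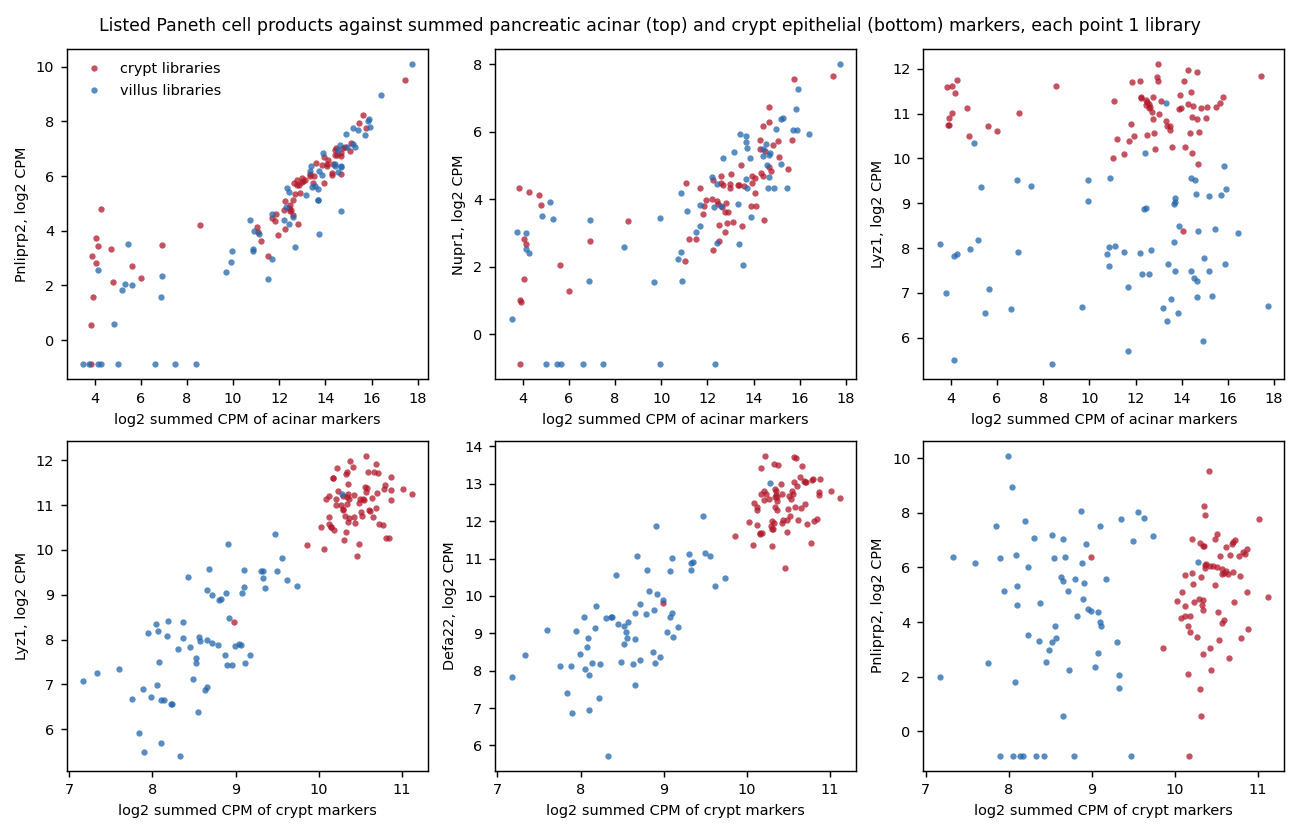
Level (log2 CPM, y axis) of Pnliprp2, Nupr1 and Lyz1 against the log2 summed CPM of pancreatic acinar markers (upper panels, x axis) and of Lyz1, Defa22 and Pnliprp2 against that of crypt markers (lower panels), with 1 point per library, crypts in red and villi in blue. Pnliprp2 is higher where the acinar sum is higher in the upper cluster of libraries, and villus levels of Lyz1 and Defa22 are higher where the crypt marker sum is higher.

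Among themselves the granule genes varied together. After group means were removed, Lyz1, Mmp7, Ang4, Defa22 and Defa24 had pairwise r of 0.83 to 0.96 over the 71 crypt libraries and 0.56 to 0.97 over the 66 villus libraries. Libraries share depth and the composition of the scraped tissue, so these values are descriptions. Defa5 correlated with these 5 genes at 0.58 to 0.76 in crypts and 0.22 to 0.34 in villi, and Nupr1 with Pnliprp2 at 0.70 in each. Itln1 stood at -0.14 to 0.15 with the others in crypts. Non-member probes were also compared with the mean of all 9 measured genes, each scaled to its own spread, with group means kept. The most alike were Gm15292 (r = 0.912), Gm14851 (0.898), Defa32 (0.864) and Defa30 (0.854) in crypts and Gm14851 (0.891) and Defa32 (0.868) in villi. The median over all probes was 0.030 and 0.012. In villi the levels also followed the crypt marker sum, at r = 0.70 for Lyz1, 0.69 for Defa22, 0.67 for Defa24, 0.56 for Mmp7 and 0.53 for Ang4 (n = 66, permutation p = 1e-05 for each, the smallest possible, adjusted p = 5.333e-05), against 0.07 for Nupr1 and 0.12 for Pnliprp2 (permutation p = 0.564 and 0.342). Spearman's rho of the first 5 was 0.668, 0.693, 0.656, 0.565 and 0.561, and without the 2 libraries farthest from the median marker sum r was 0.669, 0.647, 0.619, 0.523 and 0.448. Within days 8 and 91 r was 0.667 and 0.694 for Lyz1 and 0.615 and 0.435 for Mmp7. With group means removed r in villi was 0.71 (Lyz1), 0.69 (Defa22), 0.69 (Defa24), 0.61 (Mmp7) and 0.51 (Ang4). In crypts (n = 71) r was 0.46, 0.46, 0.42, 0.27 and 0.23 in that order. The crypt values were 0.62, 0.57, 0.58, 0.58 and 0.56 with group means removed, and 0.23, 0.28, 0.24, 0.07 and 0.10 without the 2 libraries farthest from the median. How far crypt tissue left on the villus sections carried the villus values was not tested.

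**Figure D5:**
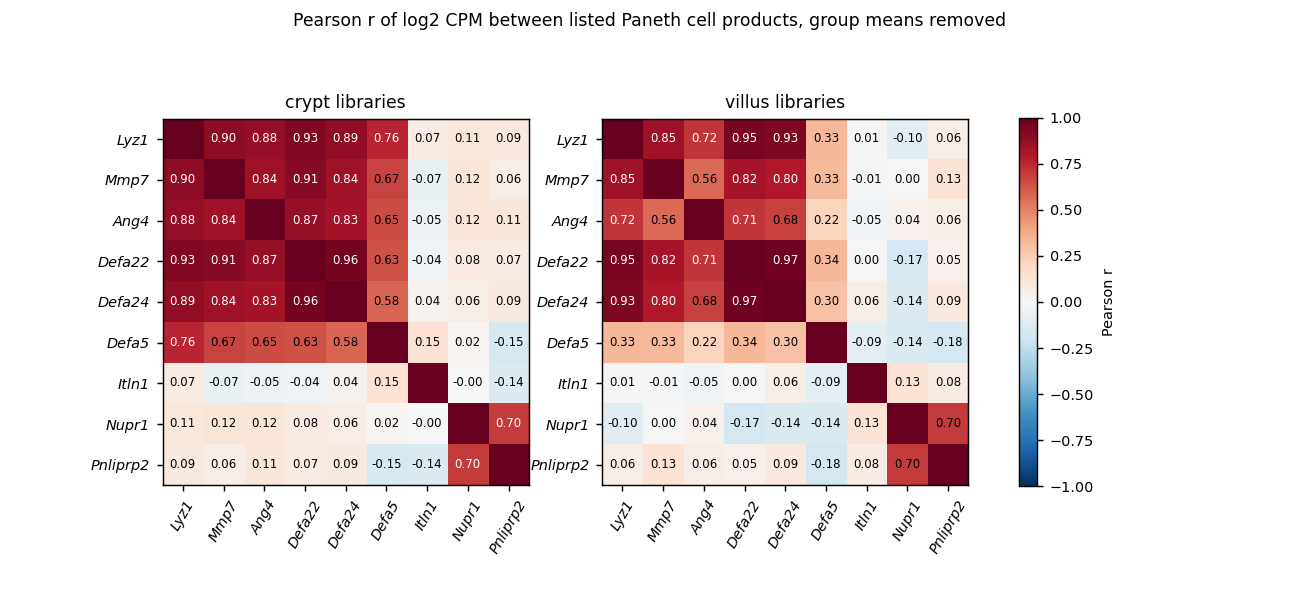
Pairwise Pearson correlation of the 9 genes (colour scale, -1 to 1) over 71 crypt and 66 villus libraries after group means were removed. Lyz1, Mmp7, Ang4, Defa22 and Defa24 form 1 block, 0.83 to 0.96 in crypts, and Nupr1 and Pnliprp2 form a pair at 0.70.

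The alpha-defensin counts carry a further limit. Of the 50-base windows of the Defa22 transcript, 74.9% also occur in another alpha-defensin transcript, as do 99.7% of those of Defa5, 92% of those of Defa17 and 28.1% of those of Defa24. Counts could therefore pass between these copies, and the values of Defa22 and Defa5 are uncertain as values of single genes. The genes lie at chr8:21162277-21163249 (Defa22), chr8:21297439-21298375 (Defa5) and chr8:21734494-21735471 (Defa24) in GRCm38. Lyz1 lies at chr10:117287797-117292868, Mmp7 at chr9:7692090-7699585 and Ang4 at chr14:51763878-51773590.

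The other alpha-defensins of the table were also higher in crypts than in villi. Of 17 tested, 14 were called higher in crypts in untreated mice on day 91 (6.93% of all probes), and 0 on day 8 by edgeR, with 5 at an unadjusted p under 0.05. Without the crypt library of mouse 49 and the villus library of mouse 48, 8 were called on day 8 (2.91% of all probes). At 180 ppm 13 were called higher in crypts on day 8 (2.59%) and 15 on day 91 (2.71%). In crypts against untreated mice edgeR called 0 at 60 or 180 ppm on day 8 and 0 at 180 ppm on day 91 (at 180 ppm an unadjusted p under 0.05 in 0 on day 8 and in 1, lower, on day 91), but 3 were called lower at 60 ppm on day 91 (2.14% of all probes), Gm7861 (log2 -2.28), Defa23 (-1.56) and Defa30 (-1.40). The trend over dose rank in the day 91 crypts was called lower for 5 (4.53%). In the day 8 crypts it was called higher for Defa2 (log2 0.27 per dose step, adjusted p = 0.0687 in edgeR, 3.26% of all probes). In villi the trend was called lower for Defa3, AY761184 and others on day 8 (9.74%) and for Gm7861, Defa36 and others on day 91 (8.08%). In villi 5 were called lower at 180 ppm on day 8 (2.81%), among them Defa23 (log2 -2.09), Defa3 (-1.98) and Defa35 (-1.93), and 2 at 60 ppm (3.93%). The summed level of these 17 genes in the untreated day 8 villi was 21944 CPM in mouse 48 and 2985 to 9135 CPM in the other 4, and without the 2 libraries 0 were called at 180 ppm (4 lower at an unadjusted p under 0.05) and 1 lower and 1 higher at 60 ppm. On day 91 in villi 4 were called lower at 180 ppm (4.54%), among them Gm7861 (log2 -2.01), Defa36 (-3.19) and Defa3 (-1.71), and 6 at 60 ppm (3.96%). At 180 ppm their medians were log2 -0.14 and -0.55 in crypts and -1.40 and -1.21 in villi on days 8 and 91, and the villus median on day 8 was -0.91 without the 2 libraries. Over all probes the villus medians were log2 -0.07 and 0.12.

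Of 24 tested genes of a wider Paneth cell list, 1 was called lower at 180 ppm in crypts on day 8 (2.59% of all probes), the chemokine gene Ccl6 (log2 -1.55), and 3 on day 91 (1.54%), Mptx1 (-1.82), Reg3a (-3.37) and Ang (-1.13), and 0 were called higher. At 60 ppm in crypts 0 were called on day 8 and 5 lower on day 91 (2.14%), Mptx1 (log2 -1.88), Reg3a (-3.33), Mptx2 (-2.98), Ccl6 (-1.23) and Ang (-1.03). In villi 4 were called lower at 180 ppm on day 8 (2.81%), Ccl6 (log2 -1.86), Rnase4 (-1.26), Ang (-1.11) and Copz2, whose 180 ppm libraries were all at 0, and the same 4 were called without the crypt library of mouse 49 and the villus library of mouse 48. At 60 ppm there 4 were called lower and 2 higher, Guca2a (log2 2.10) and Reg3g (2.62), and without the 2 libraries 2 lower (3.66% of all probes) and 1 higher (2.85%). On day 91 in villi 4 were called lower at 180 ppm (4.54%), among them Mptx1 (log2 -2.08) and Mptx2 (-3.73), which encode mucosal pentraxins, and 1 higher (9.53%), and 4 were called lower at 60 ppm (3.96%). Ccl6 measured 26.4, 33.0, 51.7 and 58.9 CPM in untreated day 91 villi and 2.76, 7.45, 9.34, 10.2 and 11.8 CPM at 180 ppm, without overlap (log2 -2.34, adjusted p = 2.335e-05 in edgeR). Lyz2, the lysozyme gene of macrophages, was the 1 called higher, at log2 2.37, from 6.33 to 47.1 CPM untreated to 40.5 to 132 CPM at 180 ppm. The list's medians at 180 ppm were log2 -0.37 and -1.17 in crypts and -0.85 and -0.44 in villi on days 8 and 91, and -0.24 in the day 8 villi without the 2 libraries.

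Of 20 regulators of Paneth cell fate and niche factors, edgeR called 0 at 180 ppm in crypts on day 8 (1 lower at an unadjusted p under 0.05) and 2 higher on day 91 (2.25% of all probes), Ctnnb1, which encodes the Wnt effector beta-catenin (log2 0.61), and Spdef, a transcription factor of secretory cells (1.29). At 60 ppm in the day 91 crypts 5 were called higher (6.76%), Atg5 (log2 1.19), Ctnnb1 (0.84), Ern2 (1.10), Spdef (1.32) and Ephb2 (1.41), and 1 lower (2.14%), Xbp1 (-1.14), a transcription factor of the secretory pathway. In villi 1 was called higher at 180 ppm on day 8 (1.92%), Sox9, whose untreated libraries were all at 0, and 0 without the crypt library of mouse 49 and the villus library of mouse 48 (4 at an unadjusted p under 0.05). On day 91 4 were called higher there (9.53%), among them Ephb2, a receptor that positions cells along the crypt (log2 1.73), and Ctnnb1 (0.83), and 0 were called lower at 180 ppm on either day. At 60 ppm in villi Spdef was called higher and Wnt3 lower on day 8, with and without the 2 libraries, and 4 were called higher on day 91 (10.5%). The 2 tested Brunner's gland markers had 1 called lower in villi at 180 ppm on each day and 0 called in crypts by edgeR (1 lower on day 8 at an unadjusted p under 0.05). Their summed level in untreated villi was 196 CPM in mouse 46 (day 8) and 73.9 CPM in mouse 5 (day 91). The other untreated villus libraries held 0 to 9.98 CPM. At 60 ppm in the day 8 crypts both were called higher, and 0 without the 2 libraries. The sum there was high in 1 library only, 3572 CPM in mouse 448 against 3.13 to 27.9 CPM in the others.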

How the data were processed

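The authors processed TempO-Seq reads into deposited raw counts per probe, 1 column per library, and the submitters' notes name bcl2fastq 2.17.1.14 and Bowtie. Aligner settings were not given in the sources used here. No molecular identifiers were described.

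From the counts, edgeR 4.0.16 (R 4.3.3) was run with TMM normalization, filterByExpr, a trended dispersion and the quasi-likelihood fit in its legacy form, as 1 fit of 28 groups with no block. Benjamini-Hochberg adjustment ran over 26365 probes, with a threshold of 0.1. CPM used TMM library sizes, and log2 CPM a prior count of 2. All mice are separate animals. DESeq2 1.42.0, other normalizations, filters, thinning, probes summed per gene, separate fits, an acinar marker covariate, libraries left out and a mouse block were tried, and estimateDisp and the block without 2 mice were added after seeing the data. The crypt library of mouse 49 and the villus library of mouse 48, left out as a pair, were likewise picked by their levels in these data. The trended dispersion was kept for its running time after the counts of calls from it and from estimateDisp were known. The block, acinar and left-out fits used the dispersion trend of the full fit. Crypt and villus libraries with the same number in their labels come from the same mouse, so the numbers pair them. Their deviations from group means correlated at a median r of 0.058 (66 pairs), against -0.016 in 269 other pairs of different mice. In 47 of the 66 pairs the mouse's own villus library was the best match of its dose and day. An r over 0.1 occurred in 14 of the 66 pairs and in 3 of the 269. Correlations used permutation tests (scipy 1.17.1). In simulated counts for villi at 180 against 0 ppm on day 91 (26365 probes), 17 of 100 genes changed 2-fold and 53 of 100 changed 4-fold were called, with 4 other probes called.

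The 10 genes and all lists were chosen with earlier results of these data known. All members are named, and from each list at most the 3 genes of smallest adjusted p per compartment and day at 180 ppm, as well as like genes among the 10 of highest correlation. Ang in day 8 villi, Lyz2, the list genes at 60 ppm and in trends, and the ratio of Mmp7 to Lyz1 fall outside that rule and were chosen after their values were seen.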

Additional observations from a re-analysis of the deposited data

Results flagged for a closer look

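Of 238 groups of 4 to 6 libraries tested (9 genes, 28 groups, without groups of constant value), 24 held 1 library far from the others on the log2 CPM scale by Dixon's test, 11 high and 13 low. The test's chance rate of about 1 in 20 holds for independent, normally spread values. These genes varied together, and in the flagged groups of Itln1 and Defa5 all other libraries were at 0, which fixes the flag in advance. The number flagged therefore cannot be set against that rate.

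In crypts on day 8 the low libraries were Mmp7 at 0.1 ppm (160.7 CPM, mouse 129), Defa22 and Defa24 at 1.4 ppm (2593 and 2738 CPM, both mouse 210), Lyz1, Ang4 and Defa22 at 5 ppm (934.1, 32.7 and 1722 CPM, all mouse 289) and Mmp7 at 180 ppm (287.5 CPM, mouse 529). Itln1 was high in 1 library at 1.4 ppm (1.429 CPM) and at 180 ppm (1.969 CPM). In crypts on day 91 Defa22 was high at 1.4 ppm (8873 CPM, mouse 161), Mmp7 was high at 60 ppm (282.9 CPM, mouse 402) and Pnliprp2 was low at 60 ppm (5.978 CPM, mouse 403).

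In villi on day 8 mouse 207 at 1.4 ppm had high Defa22 (2074 CPM) and low Nupr1 (2.427 CPM), mouse 286 at 5 ppm had high Itln1 (6.343 CPM), and mouse 288 at 5 ppm had high Defa5 (7.155 CPM) with Nupr1 and Pnliprp2 at 0 CPM. Ang4 was high at 20 ppm (32.73 CPM, mouse 367) and low at 180 ppm (0 CPM, mouse 526). In villi on day 91 Defa5 was high at 0 ppm (7.913 CPM, mouse 5) and 0.1 ppm (2.748 CPM, mouse 85), Mmp7 was low at 1.4 ppm (0.2591 CPM, mouse 162) and Defa22 was high at 60 ppm (1434 CPM, mouse 402).

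In an interaction test with the mouse as a replicate block, 6 values of the 180 ppm effect were called different between compartments. On day 8 the villus effect minus the crypt effect was log2 -1.644 for Lyz1, -2.825 for Ang4, -1.477 for Defa22, -1.516 for Defa24 and -2.76 for Pnliprp2, and on day 91 it was -1.586 for Mmp7. Without the block none of the 6 passed in edgeR. A further block fit left out both libraries of mice 48 and 49, of which the villus library of 48 and the crypt library of 49 went against their labels. In it Lyz1 (log2 -0.90, adjusted p = 0.815), Defa22 (-0.67, 1) and Defa24 (-0.67, 1) were no longer called. The acinar marker sum was lower in the villus than in the crypt library of each of the 4 paired 180 ppm mice on day 8, and its part in the Pnliprp2 value was not tested.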

How the results depend on the processing

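Of 85 calls on single genes, 1608 values under alternatives kept 1522 calls and lost 86, and the sign changed in 0. In untreated mice on day 8 the crypt and villus comparison gave 0 calls, 4 with the replicate block pairing libraries of a mouse, 4 without the crypt library of mouse 49 and the villus library of mouse 48, 5 with the block and without these mice, and 0 to 2 with each library left out (2 without the villus library of mouse 48). The 7 day 8 villus calls of lower genes became 16 (DESeq2), 15 (without the legacy form), 14 (mean count of at least 10), 1 (separate fits), 13 (thinned counts) and 1 (without the 2 libraries), and 1 to 13 with each library left out: 1 without untreated mouse 48, 2 without 47, 4 without mouse 526 or 528, 11 without 367, 12 without 49 and 13 without 50. Without the legacy form at most 3.63% of all probes (at 60 ppm) were called lower there. Shares for the mean count and thinned fits are not given here. The 4 trend calls there became 2 in separate fits and 2 to 5 with libraries left out (2 without mouse 46, 450 or 526). The 0 compartment differences at 180 ppm became 5 (block) and 2 (block without 2 mice) on day 8, and 1 under each on day 91. Day 91 crypt calls of lower genes rose from 0 to 2 (DESeq2), 2 (without the legacy form) and 9 (separate fits), and crypt trend calls to 2, 2 and 4, and to 1 each with size factors, a mean count of at least 10 and thinning, and 0 to 1 with libraries left out (Ang4 without mouse 490). The 3 day 91 villus calls became 8 (DESeq2) and 2 to 4 with libraries left out. Pnliprp2 gave 4 higher calls without untreated mouse 7 (range 0 to 4), and 1 between days and 1 between compartments (0 to 1), and the day 91 villus trend gave 1 to 2. Compartment calls ranged over 4 to 6 (untreated, day 91), 31 to 32 (exposed, day 8) and 32 to 33 (day 91) with each library left out, and over 5 to 7, 30 to 43 and 33 to 39 in the other alternatives. The replicate block changed no other count by over 1.5 times. Other causes were not tested. Low counts limit Itln1 and Defa5.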
